A study of Homo sapiens with 8 samples.

Results

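The response of K562 cells to imatinib was read from the 4 K562 arrays of a set of 8. The arrays were chosen by their sample labels, and the other 4 arrays were of a second line, KBM5. K562 is an established human line from chronic myeloid leukaemia in blast crisis with erythroid features, and KBM5 is another line from the same disease. The K562 groups were untreated cells (control), cells given OR21 at 100 nM for 3 days (OR21), cells given imatinib at 1000 nM (IM), and cells given both drugs (combination). RNA was taken 24 hours after IM was added. The title of the series calls OR21 a DNA-demethylating drug. The label of the combination names OR21 without its dose, so the dose in the treatment protocol was used. All groups shared the same medium, RPMI-1640 with fetal bovine serum. Each group was 1 array, so the 4 arrays form a pair of comparisons that share no array: IM minus control, and combination minus OR21.

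Chronic myeloid leukaemia is driven by BCR-ABL1, a fusion tyrosine kinase that imatinib blocks by occupying its ATP site. The kinase signals through STAT5, through RAS and ERK, and through PI3K and AKT. AKT holds the FOXO transcription factors out of the nucleus, ERK and STAT5 switch on early response and survival genes, and MYC drives ribosome production and metabolism. K562 cells can be pushed towards red cell differentiation, and loss of BCR-ABL1 signal is a classical way of doing so.

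Values are probe set intensities on a linear scale as the authors deposited them. A log2 difference of 1 is a doubling, and each log2 effect below is the mean of both pair differences ± the standard error of the limma model, over 2 pairs. That standard error treats the pairs as repeats, which holds only as far as both drugs add on the log2 scale, and it contains no spread between separate cultures of a group. A gene was called when its Benjamini-Hochberg adjusted p was under 0.05 and both pairs moved the same way. The background of an array was set at the 95th percentile of the 612 negative controls on it, between 161 and 185.6 for K562, and between 6662 and 7083 of 17687 genes lay above it. Where one side of a comparison was at background, the fold is a lower bound, written "at least". Where only some arrays of the dim side were above background, the size of the difference is not exact, and such genes are marked so.

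IM changed 2368 of 17687 genes, 13.4% of those tested, by limma. Of these, 944 rose (5.34%) and 1424 fell (8.05%). The rises reached 4-fold or more for 113 genes and the falls for 169. Without a test, 1222 genes (6.91%) differed by 2-fold or more the same way in each pair, 446 upward (2.52%) and 776 downward (4.39%), and 1214 of them were among the called genes. The following counts cover only the 7580 genes above background on at least 1 K562 array. Of these, 700 passed 2-fold in IM minus control alone and 443 in combination minus OR21 alone, while none passed it in opposite directions. Both pair differences lay on the same side of 0 in 6206 of the 7580. Pearson's r between the pairs was 0.87 across these genes, which are not independent of each other. The median gene's effect was 0.07 over all genes and -0.13 over those above background. Quantile normalization moved the latter to -0.00. Of all calls, 370 were of genes at background with and without IM. Calls were rarer among the 10107 genes at background on all 4 K562 arrays, so shares over all genes are diluted by them. Of the 6436 genes with a known promoter and above background on at least 1 K562 array, 1075 fell and 597 rose. These are larger shares than over all genes, and lists of mostly expressed genes are to be read beside them. With 1 K562 array left out the effect rests on 1 pair, and limma then called 657 genes on IM minus control alone (without OR21 or without the combination) and 454 on combination minus OR21 alone (without control or without IM).

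**Figure D1:**
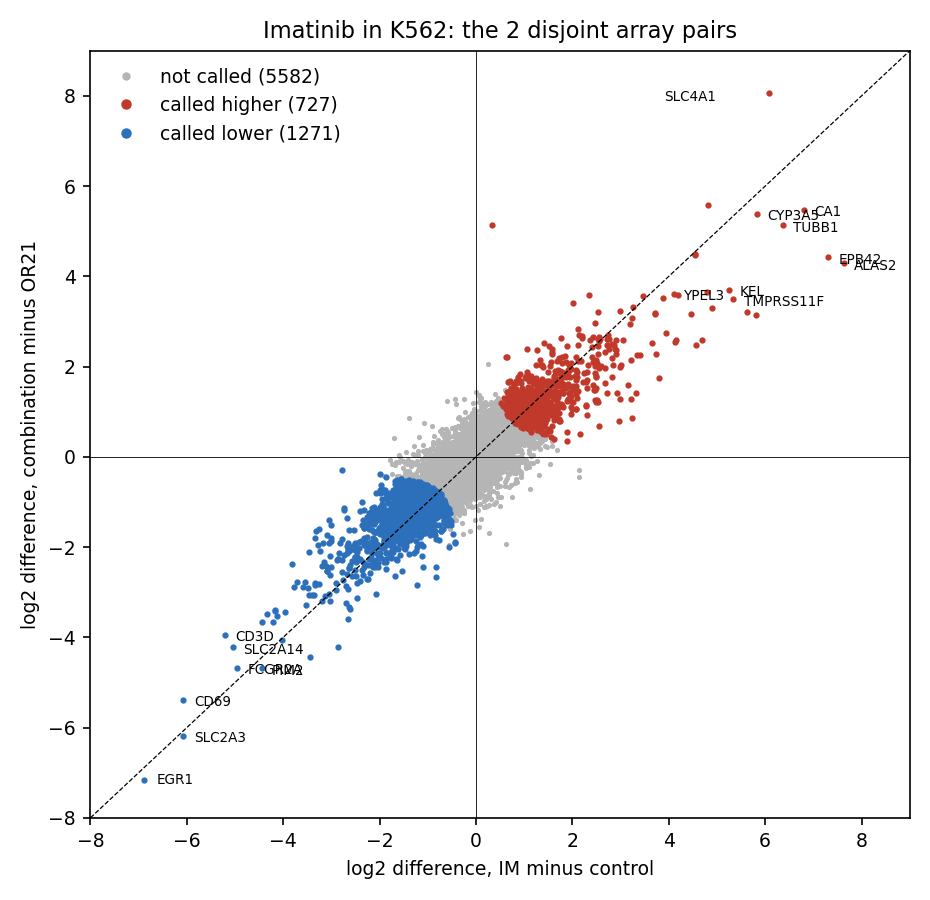
Each point is 1 of the 7580 genes above background on at least 1 K562 array, with its log2 difference IM minus control on the horizontal axis and combination minus OR21 on the vertical axis. Red points were called higher, blue points called lower and grey points not called by limma, and the dashed line marks equal differences. EGR1 lies at the lower left with both IM arrays at background, so its exact place is not measured, and the point near 0.33 and 5.14 is LXN.

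The identity of the cells was read from markers. All 8 measured erythroid markers were above background on at least 1 array, among them the erythroid transcription factor GATA1, at 10445, 14713, 10621 and 13517 on the control, OR21, IM and combination arrays, which was not called. Markers of other cells were mostly at background: 0 of 4 B cell, 1 of 6 T and NK cell, 1 of 7 monocyte and granulocyte, 1 of 6 epithelial and 1 of 5 stromal markers reached it on some array. The epithelial marker EPCAM was the brightest of these, between 7907 and 10797, and the myeloid lysozyme gene LYZ lay between 1388 and 2431. Neither was called.

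The largest changes joined red cell genes, a tubulin and a drug-metabolizing enzyme on one side with an early response gene, glucose transporters and immune surface genes on the other. Intensities are given throughout in the order control, OR21, IM, combination. TUBB1, the beta-tubulin of platelets, stood at 45.4, 136, 3715 and 4765, a rise of at least 26.0-fold (limma adjusted p = 1.04e-05). CYP3A5, a liver-type cytochrome P450 of drug oxidation, stood at 56.6, 152, 3219 and 6374, at least 28.0-fold higher (adjusted p = 5.21e-06). For both genes the arrays without IM were at background and both arrays with IM were far above it. In bulk RNA, a change in the share of cells that express a gene and a change per cell cannot be told apart.

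Among the other 13 of the 15 largest rises, red cell genes prevailed. SLC4A1, the anion exchanger band 3 of the red cell membrane, rose at least 9.81-fold, and CA1, a red cell carbonic anhydrase, at least 18.0-fold. ALAS2, the first enzyme of haem synthesis in red cells, stood at 383, 4611, 75928 and 90007. Both IM arrays were the highest, but OR21 alone already stood well above control, so the pair differences were 7.63 and 4.29. EPB42, HBB, AHSP and KEL, the genes of red cell protein 4.2, beta-globin, the alpha-globin chaperone and the Kell blood group protein, and AQP1, the water channel of red cells, were also among them. The rest of the group was less familiar in this tissue. LBH, a transcription cofactor, stood at 153, 349, 2272 and 3982 (3.70 ± 0.24, with only 1 of the arrays without IM above background). C17orf99 stood at 56.6, 72.4, 1330 and 1607 and rose at least 9.04-fold. DUSP21, a dual-specificity phosphatase gene, stood at 12.1, 36.4, 340 and 1751, at least 4.77-fold higher. TMPRSS11F, a transmembrane serine protease gene, rose at least 3.96-fold. YPEL3, a small growth-suppressing zinc-binding protein of the Yippee family, completed the 15.

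The 15 largest falls began with EGR1, described below. SLC2A3, the high-affinity neuronal-type glucose transporter GLUT3, stood at 29006, 12896, 432 and 177, with the last at background. FCGR2A, an activating receptor for antibody Fc parts, stood at 28574, 17428, 924 and 685 (-4.81 ± 0.24, adjusted p = 5.74e-06). PIM2, a survival kinase and STAT5 target, stood at 13589, 15588, 620 and 604, 23.8-fold lower with IM. In each of these genes both arrays with IM lay far below both without. SERPINB9, the inhibitor of granzyme B, stood at 9590, 5936, 530 and 560, 13.8-fold lower. CD69, an early activation antigen, fell at least 14.8-fold, and ID1, an inhibitor of basic helix-loop-helix factors, stood at 1104, 1097, 67.9 and 66.0 and fell at least 5.99-fold. The other falls were CCND1 (cyclin D1), CD3D, LCP2 (the adaptor SLP-76), PTPN7, GPR3 and the zinc importer SLC39A14, with lower bounds from 1.56-fold (PTPN7) to 3.33-fold (CD3D), and SLC2A14 and FCGR2C. SLC2A14 and SLC2A3, and likewise FCGR2C and FCGR2A, are near-identical copies, so their probes may read each other's transcripts. All 30 of these genes kept their call with each K562 array left out and under each other alternative.

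**Figure D2:**
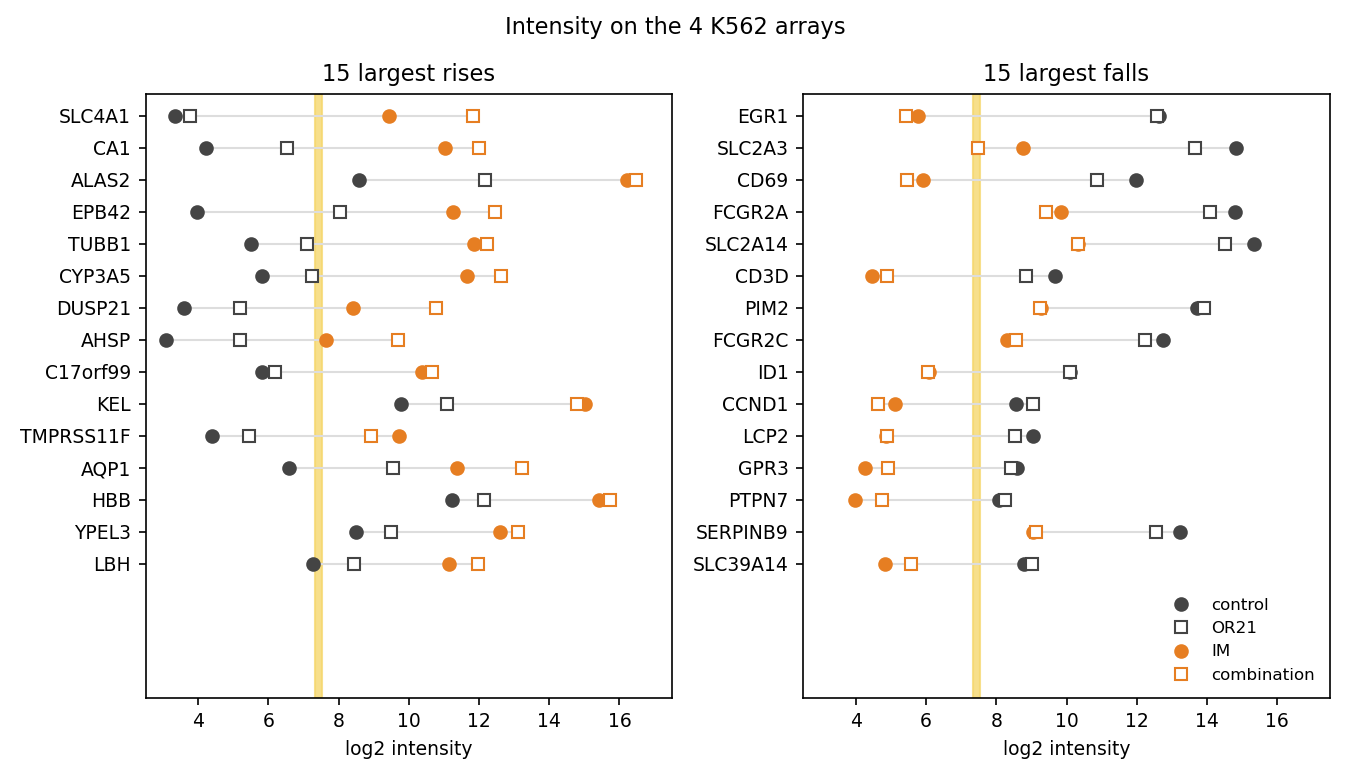
Log2 intensity of the 15 largest rises and 15 largest falls on the 4 K562 arrays: grey symbols are without IM, orange symbols with IM, circles without OR21 and open squares with OR21. The yellow band is the range of the array backgrounds, 161 to 185.6. In each gene both orange symbols lie on the same side of both grey ones. The genes were ranked by the smaller pair difference, so such a separation is largely built into the choice.

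The first group of genes reads the signalling below BCR-ABL1. Among 25 measured immediate early genes, which growth signals switch on within minutes, 8 fell, 1 rose and 13 were at background on both sides, 1 of the falls included. EGR1, a zinc finger transcription factor and the classical ERK-induced early gene, stood at 6394, 6167, 54.0 and 43.1. Both arrays without IM were nearly alike and both with IM were at background, a fall of at least 34.2-fold (limma adjusted p = 7.17e-07). IER2 fell 6.13-fold, from 3393 and 1645 to 350 and 424. FOSL1, a partner of JUN, fell at least 1.12-fold, and IER3, with a combination array at 299 but an IM array at background, fell by 2.02 ± 0.43 on the log2 scale. The KLF10 repressor rose 2.74-fold. With 1 pair alone, 5 falls were called on IM minus control and 3 on combination minus OR21. Counts on 1 pair alone are given below in that order.

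The EGR1 promoter is shown because the gene had the largest fall and because serum response elements are known to drive it. It lies at chr5:138465229-138465528 on the plus strand of GRCh38.p14, as given by RefSeq, from 250 bases before the start to 50 after it. Capitals mark matches to the CArG box, the core of the serum response element, searched on both strands. They begin 105 and 83 bases before the start.
EGR1: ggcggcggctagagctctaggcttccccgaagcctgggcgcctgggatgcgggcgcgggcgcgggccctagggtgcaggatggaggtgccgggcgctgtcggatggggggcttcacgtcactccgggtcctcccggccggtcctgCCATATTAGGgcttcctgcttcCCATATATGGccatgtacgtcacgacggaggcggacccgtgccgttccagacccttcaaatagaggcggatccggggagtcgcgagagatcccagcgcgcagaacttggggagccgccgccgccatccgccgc
CArG boxes stood in 2 of the 19 promoters found for the list (EGR1 and SRF), 10.5%, and in 1.29% of all 27305 promoters of the table. A match describes letters in this window only.

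Feedback regulators of ERK and cytokine signals gave 7 falls and 1 rise among 19 measured genes, 13 of which were at background on both sides, 2 of the falls included. CISH, a STAT5-induced inhibitor of cytokine receptors, stood at 1291, 1001, 72.3 and 94.9 and fell at least 6.18-fold (adjusted p = 2.94e-05). SOCS2, its relative, stood at 5947, 2953, 699 and 515, 6.98-fold lower. For both, the lower of the arrays without IM was above the higher of those with IM. SPRED2, an inhibitor of RAS activation, and ERRFI1, an inhibitor of EGF receptors, fell by 1.68 ± 0.24 and 1.45 ± 0.27 on the log2 scale, SPRED2 with the combination array at background. DUSP1, an ERK and p38 phosphatase, rose by 1.05 ± 0.26 with the control array at background. Of the 7 falls, 3 were called on IM minus control alone and 4 on combination minus OR21 alone. The list of JAK-STAT targets, kept for reference and overlapping with these genes, had 9 falls and no rise among 18 members, 8 and 7 of them on 1 pair alone.

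The CISH promoter is shown for its cluster of STAT sites. It lies at chr3:50611725-50612024 on the minus strand (GRCh38.p14, RefSeq). Capitals mark the letters TTCNNNGAA, searched on both strands, at 4 places that begin 241, 230, 129 and 112 bases before the start.
CISH: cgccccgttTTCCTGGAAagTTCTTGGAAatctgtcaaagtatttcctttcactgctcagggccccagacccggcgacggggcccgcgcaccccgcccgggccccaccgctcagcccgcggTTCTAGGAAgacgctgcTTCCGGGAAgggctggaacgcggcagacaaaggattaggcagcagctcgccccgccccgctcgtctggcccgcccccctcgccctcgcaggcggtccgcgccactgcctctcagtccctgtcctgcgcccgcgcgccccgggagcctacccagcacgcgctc
This motif stood in 7.88% of all promoters of the table, and in 2 of the 12 promoters of the JAK-STAT list (CISH and BCL6). Of the 9 falls in that list, 1 was of a gene at background on both sides.

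The adaptors and kinases that carry the BCR-ABL1 signal moved both ways: of 31 measured, 5 rose and 3 fell. GAB1, a docking protein for PI3K and SHP2, stood at 345, 677, 3656 and 3220 (2.83 ± 0.34), and FYN, a SRC family kinase, at 239, 403, 1197 and 1645 (2.17 ± 0.23). LYN, another SRC family kinase, stood at 3123, 2456, 1040 and 885 (-1.53 ± 0.24). So the SRC family members FYN and LYN moved in opposite directions. JAK2 rose 2.39-fold and CBLB, a ubiquitin ligase of signalling receptors, 1.88-fold, while the phosphatase PTPN1 fell 1.72-fold, a call lost with quantile normalization and with a common OR21 by IM term. ABL1 and BCR, looked up outside the naming rule because they form the drug's target, stood at 0.39 ± 0.23 and 0.16 ± 0.24 and were not called. On IM minus control alone 2 of these rises and none of these falls were called, and likewise 2 and none on combination minus OR21 alone. Of 34 receptors, 4 rose and 4 fell, 2 of the falls at background on both sides. EPOR, the erythropoietin receptor, stood at 151, 267, 460 and 728 (1.53 ± 0.24, with the control array at background). IL2RG, the shared chain of several interleukin receptors, fell by 2.48 ± 0.29 on the log2 scale, with the IM array at background, and the TGF-beta receptor TGFBR1 fell 2.96-fold. IFNAR1, a chain of the interferon receptor, rose 1.99-fold. On 1 pair alone the receptor rises numbered 1 (IM minus control) and 0 (combination minus OR21) and the falls 2 and 2.

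Genes linked to the FOXO factors, which act when AKT is silent, gave 14 rises and no fall among 30 measured, with a median of 0.74 over the list against 0.07 over all genes. YPEL3 stood at 361, 716, 6190 and 8797 (3.86 ± 0.24, adjusted p = 1.63e-05), and its relative YPEL5 at 981, 1285, 8923 and 9946 (3.07 ± 0.27). TSC22D1, a leucine zipper regulator of TGF-beta signalling, stood at 182, 263, 1718 and 2212 (3.16 ± 0.23). In all 3 genes both arrays with IM were several times higher than both without. ARRDC4, an arrestin-like relative of the glucose uptake inhibitor TXNIP, rose 6.03-fold. The list's own factors FOXO3 and FOXO4 were among the called rises. With 1 pair alone, 8 rises were called on IM minus control and 10 on combination minus OR21, and 2 of the 14 were of genes at background on both sides.

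The YPEL3 promoter is shown as that of the list's largest rise. It lies at chr16:30096164-30096463 on the minus strand (GRCh38.p14, RefSeq). Capitals mark the FOXO motif GTAAACA, searched on both strands, whose first base here is the start itself.
YPEL3: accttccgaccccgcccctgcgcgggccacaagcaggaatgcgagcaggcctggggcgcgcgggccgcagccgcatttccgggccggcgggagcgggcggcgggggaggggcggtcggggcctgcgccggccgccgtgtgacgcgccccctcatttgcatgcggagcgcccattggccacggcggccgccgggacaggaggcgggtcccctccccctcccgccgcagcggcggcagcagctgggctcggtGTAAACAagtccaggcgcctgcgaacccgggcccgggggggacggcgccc
GTAAACA stood in 3 of 28 promoters of the list (FOXO4, TXNIP and YPEL3), 10.7%, in 3.41% of all promoters, in 5.53% of the promoters of genes that rose and in 1.95% of those of genes that fell, both counted over genes above background.

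Autophagy and lysosomal genes, which recycle cell contents and work in maturing red cells, gave more rises than falls. Of 43 autophagy genes 11 rose and 3 fell, and of 43 lysosomal genes 10 rose and 3 fell, 13 of the latter list being at background on both sides, 3 of its rises included. TP53INP1, which binds ATG8 proteins and is also a p53 target, stood at 59.2, 47.3, 468 and 446 and rose at least 2.83-fold. CALCOCO1, an autophagy receptor of the endoplasmic reticulum, stood at 157, 257, 904 and 1257, with the control array at background. ATG14, a subunit that directs the lipid kinase of autophagy, stood at 194, 190, 726 and 720, 3.76-fold higher. OPTN, a mitophagy receptor, rose at least 2.10-fold. ATG5, part of the conjugation machinery, fell 2.27-fold, and ATG101, of the initiation complex, fell by 1.13 ± 0.28 on the log2 scale with the IM array at background.

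Among the lysosomal rises were the proteases CTSL (2.49-fold) and TPP1 (2.58-fold), the hexosaminidase subunit HEXA (2.18-fold) and the sphingolipid activator PSAP (2.13-fold). The protease CTSH fell 4.37-fold, from 2885 and 2717 to 592 and 693, and the galactosidase GLA 2.89-fold. The lysosomal list rested on both pairs together: 1 rise was called on IM minus control alone and none on combination minus OR21 alone, and for autophagy genes 4 and 3. A list of late red cell precursor genes covered ubiquitination and organelle clearance, but also held other genes such as BPGM, FAM210B and SLC6A8. Of its 26 measured genes, 9 rose, 1 of them at background on both sides, and 1 fell. BPGM, which makes the haemoglobin ligand 2,3-bisphosphoglycerate, rose 3.99-fold, RNF123, a ubiquitin ligase, 3.89-fold, FAM210B, a mitochondrial protein of haem synthesis, 3.85-fold and the ubiquitin-conjugating enzyme UBE2H 2.83-fold. SLC6A8, the creatine transporter, fell 3.71-fold. On IM minus control alone 4 of these rises were called and on combination minus OR21 alone 3.

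Ribosome biogenesis factors had the largest share of falls among the 48 gene lists. Of 48 measured ribosome biogenesis factors, 40 fell and none rose, 83.3% of the list against 8.05% of all genes. The list's median was -1.58 (quantile normalization -1.45). Since 46 of the 48 were above background, the nearer comparison is 1075 falls among the 6436 such genes with a promoter. Of the 40 falls, 1 was of a gene at background on both sides. NOP16, a nucleolar factor of the large subunit, stood at 5340, 5099, 464 and 525 (-3.40 ± 0.24, adjusted p = 2.96e-05). IMP4, part of the small subunit processome, stood at 6345, 5867, 697 and 1095, 6.98-fold lower. MRTO4, which builds the stalk of the large subunit, stood at 1287, 1455, 217 and 234, 6.08-fold lower. Each of them had both arrays without IM well above both with IM. UTP15, of the small subunit processome, fell at least 3.00-fold. With 1 pair alone, 22 falls were called on IM minus control and 20 on combination minus OR21, and 34 members fell at least 2-fold in both pairs.

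The promoter of MRTO4 is shown as one with the E-box CACGTG, the site bound by MYC and MAX among others. It lies at chr1:19251555-19251854 on the plus strand (GRCh38.p14, RefSeq). Capitals mark the E-box, the same on both strands, which begins 14 bases after the first base of the gene.
MRTO4: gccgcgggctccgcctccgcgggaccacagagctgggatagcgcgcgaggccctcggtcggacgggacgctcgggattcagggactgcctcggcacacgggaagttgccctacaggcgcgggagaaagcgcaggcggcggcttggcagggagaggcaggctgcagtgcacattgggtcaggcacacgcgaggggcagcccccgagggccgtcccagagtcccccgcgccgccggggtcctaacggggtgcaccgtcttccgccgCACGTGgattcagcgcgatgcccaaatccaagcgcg
CACGTG stood in 15 of 41 promoters of the list, 36.6%, in 7.43% of all promoters and in 11.2% of those of genes above background in K562. It stood in 14.1% of the promoters of genes that fell and 9.88% of those that rose. MYC itself stood at 12058, 11202, 1918 and 2768, 5.04-fold lower, and in its network MAX fell 2.04-fold and MLX 1.81-fold, both calls lost with quantile normalization, while the antagonist MXI1 rose 1.98-fold.

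Of 28 subunits and factors of RNA polymerases I and III, which transcribe ribosomal and transfer RNA, 15 fell and 1 rose. POLR3G and POLR3GL are alternative versions of the same polymerase III subunit and moved in opposite directions. POLR3G stood at 1740, 1324, 183 and 187, with the IM array at background, and POLR3GL at 246, 211, 461 and 450, a 2.00-fold rise. POLR1A, the largest subunit of polymerase I, fell 4.31-fold and POLR1C, shared by both enzymes, 3.03-fold. POLR1B, at 169, 180, 46.5 and 47.8, lay just above background without IM, so no fold is given. On IM minus control alone 4 of the falls were called, and on combination minus OR21 alone 6.

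Of 17 aminoacyl-tRNA synthetases, which load amino acids on transfer RNA, 10 fell, led by WARS1 (5.16-fold) and YARS1 (4.28-fold), and none rose. Of 34 translation initiation factors 11 fell and 1 rose: EIF2S1, the alpha subunit of eIF2, fell 4.02-fold and the scaffold EIF4G1 3.88-fold, while EIF4EBP2, a repressor of cap-dependent translation, rose 2.41-fold from 9423 and 14712 to 29858 and 27019. Cytosolic ribosomal proteins stood apart from these lists. None of the 29 measured was called in either direction, and their median was 0.16. Without adjustment for the number of genes, 0 of the 29 had p under 0.05 by limma. Small movements may be missed at this precision. In simulated data limma called 15 of 100 genes changed 2-fold and 95 of 100 changed 4-fold. Far fewer genes were changed there than the 2368 called here, which makes the adjusted threshold stricter. The simulated shares thus do not give the chance of a call in these data.

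Mitochondrial ribosome and import genes followed the biogenesis factors, with 19 falls and 1 rise among 37. TIMM8A, an import chaperone, stood at 1036, 1188, 138 and 155 and fell at least 6.04-fold. MRPS12 fell at least 2.22-fold, MRPL4 4.24-fold and TOMM40, the import pore, 3.95-fold, while PMPCB, a subunit of the processing peptidase, rose 2.43-fold. Of 26 chaperonins and heat shock proteins 17 fell and none rose. FKBP4, a partner of HSP90, stood at 4950, 6054, 801 and 1421 (-2.36 ± 0.24), HSPE1, the mitochondrial co-chaperonin, fell 3.55-fold, and HSP90AA1 fell 3.02-fold. Of 35 proteasome genes 7 fell (20%) and 1 rose (2.86%), beside 8.05% and 5.34% of all genes. However, 33 of the 35 were above background, and among such genes with a promoter 1075 of 6436 fell. PSME3, a nuclear activator, fell 3.90-fold, and its relative PSME1 rose 1.81-fold. With 1 pair alone the chaperone falls numbered 5 on IM minus control and 2 on combination minus OR21, the mitochondrial ones 6 and 4, the synthetases 2 and 3, the initiation factors 3 and 2, and the proteasome genes 1 and 1.

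**Figure D3:**
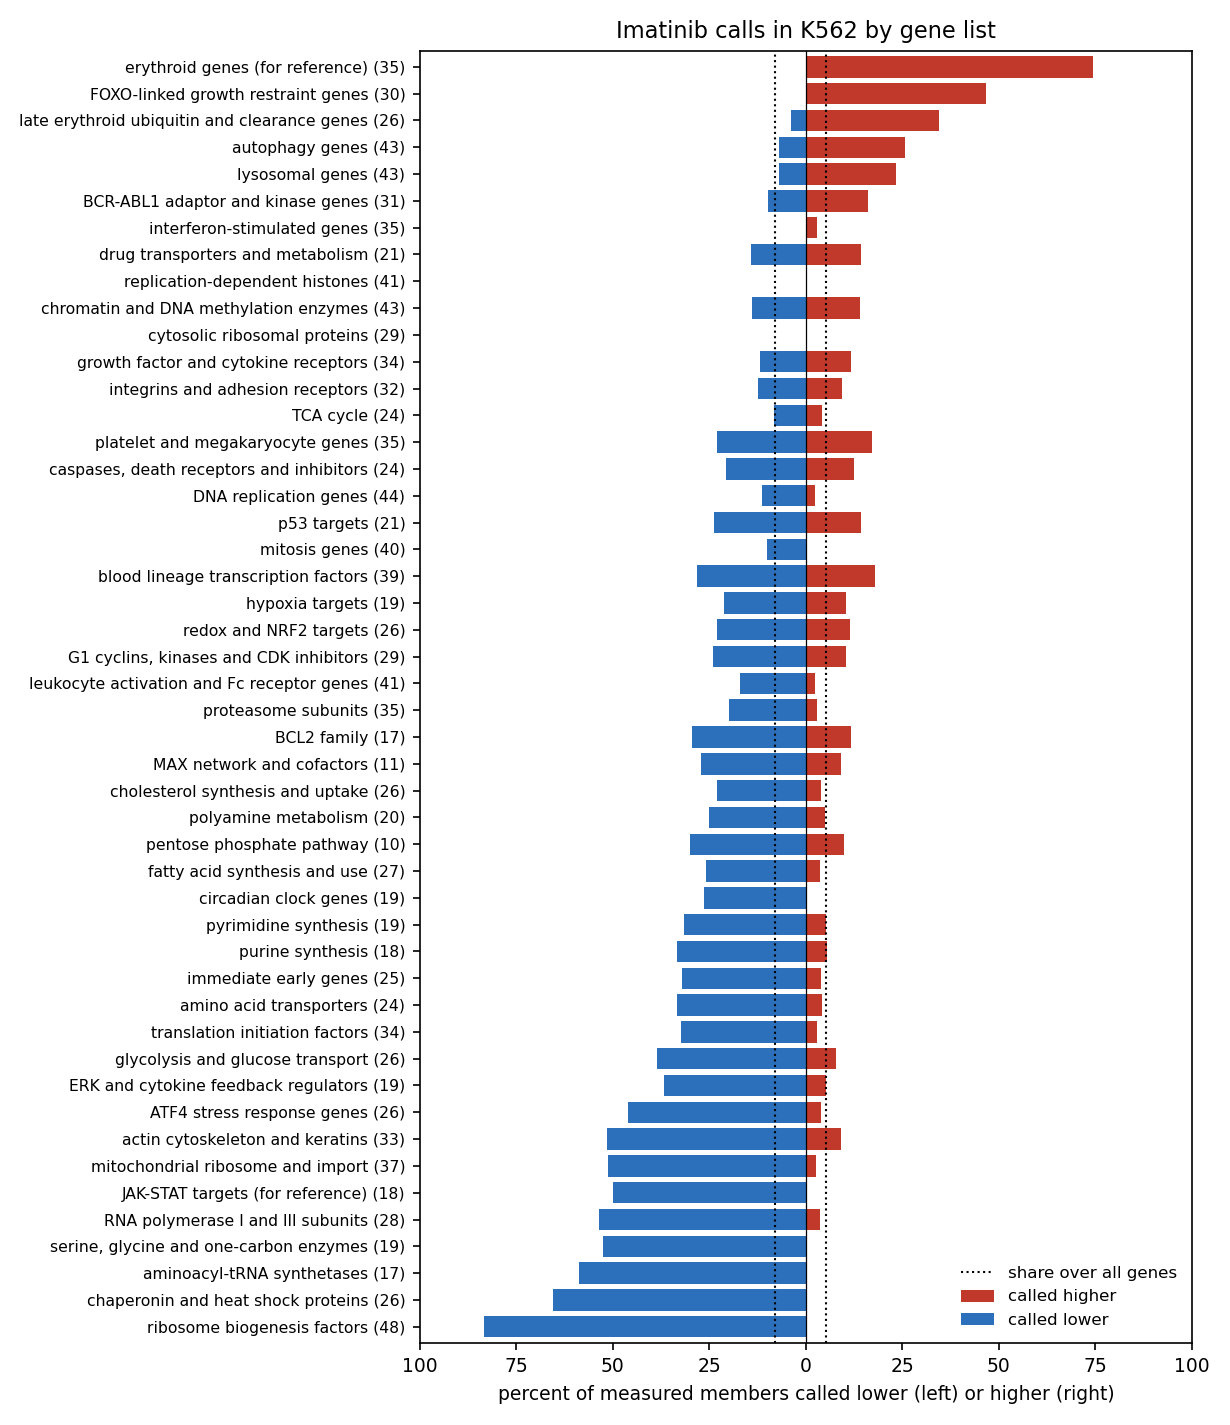
For each of the 48 gene lists, the bar to the left is the percentage of its measured members called lower by limma and the bar to the right the percentage called higher, with the number measured in brackets. The dotted lines are the shares over all genes, 8.05% and 5.34%, which include the 10107 genes at background on all 4 K562 arrays. Ribosome biogenesis factors are at the bottom with 83.3% lower and erythroid genes at the top with 74.3% higher.

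Metabolic genes fell in several lists. Of 19 measured enzymes and carriers of serine, glycine and one-carbon metabolism, which supply nucleotide synthesis, 10 fell and none rose. PSAT1, of serine synthesis, stood at 11521, 7386, 2002 and 1983, 4.63-fold lower. PHGDH, the first enzyme of that route, stood at 4052, 2429, 427 and 805, 5.35-fold lower. SLC25A32, the mitochondrial folate carrier, fell 6.68-fold and GCSH, of glycine cleavage, 2.95-fold. Of these 10 falls, 5 were called on IM minus control alone and 2 on combination minus OR21 alone.

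Of 26 genes of the ATF4 programme, which answers amino acid shortage and stress of the endoplasmic reticulum, 12 fell and 1 rose, 2 of the falls and the rise at background on both sides. ASNS, asparagine synthetase, stood at 9330, 9010, 2782 and 3291, 3.03-fold lower, and GOT1, cytosolic aspartate aminotransferase, at 8834, 8499, 2942 and 2514, 3.19-fold lower. Both showed nearly the same intensity on the control and OR21 arrays. DDIT4, an inhibitor of mTOR, stood at 2587, 1959, 322 and 568, 5.26-fold lower, and its call was lost without the control or the IM array (highest limma adjusted p = 0.157). TRIB3, a pseudokinase that restrains AKT, fell at least 2.13-fold. Only 4 of the falls were called on IM minus control alone and 1 on combination minus OR21 alone.

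The GOT1 promoter, shown for its amino acid response element, lies at chr10:99430575-99430874 on the minus strand (GRCh38.p14, RefSeq). The motif TGATGNAA was searched on both strands. Capitals mark its match, which reads on the opposite strand and begins 198 bases before the start.
GOT1: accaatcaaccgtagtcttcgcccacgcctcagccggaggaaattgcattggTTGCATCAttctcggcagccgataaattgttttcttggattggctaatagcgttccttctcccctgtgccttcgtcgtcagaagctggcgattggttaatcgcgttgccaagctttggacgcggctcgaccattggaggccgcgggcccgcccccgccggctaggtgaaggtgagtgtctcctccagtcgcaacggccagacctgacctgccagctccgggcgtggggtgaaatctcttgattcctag
The motif stood in 5 of 21 promoters of the list (ASNS, ATF3, CHAC1, FGF21 and GOT1), 23.8%, and in 3.67% of all promoters.

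Of 24 amino acid transporters 8 fell and 1 rose. SLC7A5, the large neutral amino acid carrier, stood at 7009, 4565, 495 and 878, 8.58-fold lower, SLC38A1, a glutamine carrier, at 6208, 7122, 1103 and 1135, 5.94-fold lower, and SLC7A1, the arginine carrier, at 1164, 1278, 231 and 234, 5.24-fold lower. SLC25A22, a mitochondrial glutamate carrier, fell at least 1.71-fold. The exception was SLC6A9, a glycine transporter, at 272, 820, 2556 and 1496, 4.14-fold higher. Glycine is a substrate of haem synthesis. The falls numbered 5 on IM minus control alone and 3 on combination minus OR21 alone.

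Glycolysis gave 10 falls and 2 rises among 26 genes, and its glucose transporters moved in opposite directions. SLC2A1, GLUT1, stood at 5803, 11635, 24391 and 24458, 2.97-fold higher, against the fall of SLC2A3 given above. PKM, pyruvate kinase, stood at 17054, 8299, 1546 and 994, 9.60-fold lower, and LDHA, lactate dehydrogenase, at 82676, 126751, 15683 and 26319, 5.04-fold lower. PDK2, which inhibits pyruvate dehydrogenase, rose by 2.26 ± 0.26 with the control array at background. The falls numbered 8 on IM minus control alone and 4 on combination minus OR21 alone. In the pentose phosphate pathway 3 of 10 fell, RPIA (550, 463, 142 and 224, with the IM array at background) and PRPS2 (1.78-fold, a call lost with quantile normalization) among them, and 1 rose. The rise and the other fall were of genes at background on both sides. In the citric acid cycle 2 of 24 fell and 1 rose: IDH3A, of the NAD-dependent isocitrate dehydrogenase, fell 3.22-fold and DLAT 2.30-fold, while the NADP-dependent IDH2 rose 2.69-fold. These shares, 8.33% lower and 4.17% higher, lay near those of all genes, but 23 of the 24 genes were above background. Both lay below the shares over such genes with a promoter, 1075 falls and 597 rises among 6436. Of the falls in each of these pathways 1 was called on IM minus control alone and none on combination minus OR21 alone.

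Lipid and nucleotide synthesis genes gave more falls than rises. Falls made up 23.1% of the cholesterol list, 25.9% of the fatty acid list, 33.3% of the purine list and 31.6% of the pyrimidine list. The share was 8.05% over all genes, and among genes above background with a promoter 1075 of 6436 fell. The median over the fatty acid list was 0.03. Of 26 cholesterol genes 6 fell and 1 rose, DHCR7 by 3.39-fold, CYP51A1 by 2.31-fold, HMGCS1 by 2.17-fold and NSDHL by 2.17-fold, while TM7SF2, a sterol reductase, rose 2.56-fold. Of 27 fatty acid genes 7 fell and 1 rose: fatty acid synthase FASN fell 2.87-fold and the desaturase SCD 2.35-fold, ACSL4 fell at least 1.51-fold and FABP5 at least 1.45-fold, while CPT2, of fatty acid import for oxidation, rose 2.41-fold. Of 18 purine genes 6 fell, led by IMPDH1 (3.36-fold), PFAS (2.81-fold), GART (2.65-fold) and PAICS (2.47-fold), and the muscle-type ADSS1 rose at least 2.93-fold. Of 19 pyrimidine genes 6 fell, DCTPP1 by 4.71-fold, CTPS1 by 3.06-fold, DHODH by 2.89-fold and CAD by at least 2.60-fold. CTPS2 rose 1.82-fold against the fall of CTPS1, the other CTP synthase. For the cholesterol list 1 fall held on IM minus control alone and none on combination minus OR21 alone, for purines 1 and 1, for pyrimidines 1 and 3, and for fatty acids 3 and 2.

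In polyamine metabolism 5 of 20 genes fell (25%) and 1 rose (5%), beside 8.05% and 5.34% of all genes. Among genes above background with a promoter 1075 of 6436 fell and 597 rose. SRM, spermidine synthase, stood at 13419, 20571, 1462 and 2239, 9.18-fold lower, and AMD1, which supplies its aminopropyl donor, fell 3.39-fold. EIF5A, the translation factor that carries the spermidine-derived hypusine, fell 2.30-fold, ARG2 fell at least 1.76-fold, and SAT1, the enzyme of polyamine breakdown, rose 2.07-fold. Redox genes split, with 6 falls (23.1%) and 3 rises (11.5%) among 26. NFE2L2, the factor NRF2, fell 2.35-fold, its target NQO1 fell 5.58-fold and MGST1 fell 5.49-fold, and PRDX1 fell 2.01-fold. Catalase (CAT) rose 2.77-fold and MGST3 rose 3.26-fold, from 4506 and 4751 to 13781 and 16460. Of 19 hypoxia genes 4 fell (21.1%) and 2 rose (10.5%). VEGFA fell 2.61-fold, ERO1A 2.70-fold, EPAS1 at least 1.85-fold and EGLN3 at least 1.27-fold, while ARNT rose 2.01-fold. On 1 pair alone the polyamine falls numbered 3 and 2 (IM minus control, then combination minus OR21), the redox falls 2 and 2, and the hypoxia falls 1 and 1.

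Cell death and cell cycle genes followed. In the BCL2 family 5 of 17 fell and 2 rose, and 8 were at background on both sides, 1 of the rises included. The survival members MCL1 and BCL2L1 fell: MCL1 stood at 13147, 7975, 3168 and 3040, 3.30-fold lower, and BCL2L1 at 863, 791, 210 and 155, with the combination array at background. The death-promoting members BID and BAK1 fell too, by 3.05-fold and at least 1.51-fold. BCL2L13, a mitochondrial member, rose 2.25-fold. BCL2L11 (BIM), likewise looked up as a known partner of IM-induced death, stood at 0.47 ± 0.25 and was not called. Of 24 caspase and death receptor genes 5 fell (20.8%) and 3 rose (12.5%), beside 8.05% and 5.34% of all genes. At background on both sides were 7 of the 24, 1 of the falls and 1 of the rises included. CYCS, cytochrome c, stood at 53333, 47789, 14104 and 14362, 3.55-fold lower. The caspase-8 inhibitor CFLAR fell 2.43-fold, TNFRSF1A 2.00-fold (a call lost with quantile normalization), and TNFRSF10A by 1.73 ± 0.26 on the log2 scale with the IM array at background. BIRC2 and HTRA2 rose 1.97-fold and 1.79-fold. On 1 pair alone the BCL2 family falls numbered 4 (IM minus control) and 1 (combination minus OR21), and those of the caspase list 3 and 1.

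Of 29 G1 genes 7 fell, 1 of them at background on both sides, and 3 rose. CCND2, cyclin D2, stood at 13376, 13806, 2143 and 2505, 5.87-fold lower, and CCND1 at 375, 533, 34.6 and 24.8, at least 2.43-fold lower. CCND1 and CCND2 were thus clearly lower on both arrays with IM. CDC25A and E2F3 fell by 1.72 ± 0.24 and 1.01 ± 0.25 on the log2 scale, each with the IM array at background. CDKN1C, the inhibitor p57, rose 2.61-fold and TFDP2, an E2F partner, 2.13-fold. By contrast few genes of the later cycle were called by limma. Of 44 DNA replication genes 5 fell, 1 of them at background on both sides, and 1 rose. Of 40 mitosis genes 4 fell, and none of 41 replication-dependent histone genes was called. At an unadjusted p under 0.05 by limma, 12 replication genes were lower and 1 higher. By the same measure 10 mitosis genes were lower and none higher, and 6 histone genes were lower and 1 higher. POLE2 fell 2.27-fold, GINS3 2.03-fold, MAD2L1 1.96-fold and KIF11 1.80-fold, while CDT1, the licensing factor, rose 2.25-fold. The call of KIF11 was lost with quantile normalization and that of CDT1 with log2(value + 16). None of these replication and mitosis calls held on 1 pair alone. The share of called falls in the replication list (11.4%) and the mitosis list (10.0%) lay near the 8.05% of all genes. However, 42 of the 44 and 39 of the 40 were above background. Among genes above background with a promoter, 1075 of 6436 fell, a larger share than in either list. Of 21 p53 targets 5 fell and 3 rose, 3 of the falls (CDKN1A, TNFRSF10B and TIGAR) at background on both sides, with falls of AEN (5.32-fold) and ZMAT3 (at least 1.02-fold) and a rise of SESN1 (at least 1.74-fold). On 1 pair alone 2 and 1 of the p53 target falls were called, and of the G1 falls 3 and 2.

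Transcription factors of the blood lineages moved both ways. Of 39 measured, 11 fell and 7 rose, 1 of the rises at background on both sides. GATA2, of stem and early progenitor cells, stood at 1461, 1055, 107 and 143 and fell at least 6.75-fold. HHEX, of progenitors, stood at 2308, 1623, 261 and 191, 8.66-fold lower, and HES1, a Notch target, fell at least 2.36-fold. These 3 genes had both arrays with IM far below both without. TAL1, which pairs with GATA1 in red cell precursors, stood at 585, 831, 2471 and 2695, 3.70-fold higher, and its partner LMO2 at 1013, 2134, 4075 and 4988, 3.07-fold higher. KLF1, the master activator of adult globin genes, stood at 429, 1168, 1721 and 2453, 2.90-fold higher. Of the falls 6 were called on IM minus control alone and 7 on combination minus OR21 alone, and of the rises 5 and none. Of 19 clock genes 5 fell and none rose, and 11 were at background on both sides, 1 of the falls included. The repressor BHLHE40 stood at 5719, 4563, 1161 and 873, 5.07-fold lower, and CSNK1E fell 2.14-fold and CRY1 at least 1.16-fold. The clock falls numbered 2 and 3 on 1 pair alone.

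Among 43 chromatin enzymes 6 rose and 6 fell, 2 of the falls at background on both sides. That is 14% each way, beside 5.34% higher and 8.05% lower over all genes. On at least 1 K562 array 36 of the 43 were above background. Among such genes with a promoter 597 of 6436 rose and 1075 fell. DNMT3B, a de novo DNA methyltransferase, stood at 1455, 1184, 314 and 225, 4.94-fold lower. The arginine methyltransferases PRMT1 and PRMT5 fell 4.06-fold and 3.77-fold, and the demethylase KDM2A 1.84-fold, the last a call lost with quantile normalization. EZH1, the polycomb methyltransferase of resting cells, stood at 222, 347, 1680 and 927, 4.50-fold higher, and the deacetylase SIRT2 rose 3.46-fold. On IM minus control alone 2 of these rises and 3 of these falls were called, and on combination minus OR21 alone none and 3.

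Of 33 genes of the actin cytoskeleton and keratins 17 fell and 3 rose. KRT8 and KRT18, the keratin pair of simple epithelia that K562 cells also express, stood at 38764, 33866, 6157 and 8100 and at 15706, 13483, 2780 and 3417, 5.13-fold and 4.72-fold lower. ACTN4, an actin crosslinker, fell 4.79-fold, and KRT10 at least 2.31-fold. The partners KRT8 and KRT18 thus fell by nearly the same amount. TPM1 rose 2.08-fold and MYL6 2.03-fold. The falls numbered 8 on IM minus control alone and 4 on combination minus OR21 alone.

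Of 41 leukocyte activation genes 7 fell and 1 rose, and 25 were at background on both sides. Besides CD69 and FCGR2A, CD3D stood at 817, 459, 22.1 and 29.7 and LCP2 at 532, 372, 28.8 and 29.5, both at background with IM, while CD83 rose at least 1.39-fold. The T cell markers CD3E, CD2, CD5 and CD8A were at background on all 4 arrays, so the CD3D signal was not accompanied by them. Of 32 adhesion receptors 4 fell and 3 rose, 1 of each at background on both sides. ITGA5, the fibronectin receptor chain, stood at 1731, 975, 132 and 142 and fell at least 7.07-fold, CD47 fell 2.52-fold and ICAM1 2.13-fold. ICAM4, the adhesion molecule of red cells, stood at 254, 454, 1676 and 2776, 6.36-fold higher, and CD58 rose 2.40-fold. On 1 pair alone the leukocyte falls numbered 6 and 5 and the adhesion falls 3 and 1.

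Platelet and megakaryocyte genes gave no common direction, with 8 falls and 6 rises among 35, of which 26 were at background on both sides, 2 of the falls and 3 of the rises included. TUBB1 was the exception in size. CD9, a tetraspanin, rose 2.48-fold, SRGN, the granule proteoglycan, fell 2.42-fold, TGFB1 fell 1.91-fold and VCL fell 1.88-fold (both calls lost with quantile normalization), and GP6 fell by 1.15 ± 0.23 on the log2 scale with the IM array at background. On 1 pair alone 2 of the falls were called on IM minus control and none on combination minus OR21. Of 35 interferon-stimulated genes 30 were at background on both sides, and 1, also at background, was called higher. Among 21 genes of drug transport and metabolism 3 rose and 3 fell, 2 of the falls (SLCO2B1 and SLCO4A1) at background on both sides. Besides CYP3A5, the lipid transporter ABCA7 stood at 1211, 2949, 6673 and 7081, 3.64-fold higher, and the nucleoside transporter SLC29A2 fell 2.22-fold. All 3 rises of this list were called on IM minus control alone and 1 on combination minus OR21 alone.

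Erythroid genes, kept for reference, had 26 rises and no fall among 35, 22 of the rises being called on IM minus control alone and 15 on combination minus OR21 alone. Of the 26 rises, 1 was of a gene at background on both sides. The EPB42 promoter is shown for its GATA sites. It lies at chr15:43220969-43221268 on the minus strand (GRCh38.p14, RefSeq). Capitals mark AGATAA, searched on both strands, at 208 and 61 bases before the start.
EPB42: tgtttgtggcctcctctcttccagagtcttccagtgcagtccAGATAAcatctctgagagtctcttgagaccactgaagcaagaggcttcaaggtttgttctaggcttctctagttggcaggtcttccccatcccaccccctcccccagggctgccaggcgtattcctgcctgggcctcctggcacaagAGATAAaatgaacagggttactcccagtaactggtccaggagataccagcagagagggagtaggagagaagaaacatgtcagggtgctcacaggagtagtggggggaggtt
AGATAA stood in 8 of 21 promoters of the erythroid list, 38.1%, in 10.5% of all promoters and in 7.37% and 3.53% of those of genes that rose and fell. EPB42 itself stood at 15.6, 263, 2456 and 5624, with the control array at background and OR21 alone above it.

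Some genes passed background on one side only. In 125 genes (0.707%) both arrays with IM were above background and neither without, and in 387 (2.19%) the reverse held. Limma called 93 and 227 of them. The balance depends on where the background is set: after quantile normalization the counts were 232 and 254, and with the 99th percentile of the negative controls they were 415 and 44, so no direction is read from them. LXN, a carboxypeptidase inhibitor gene picked out after its values were seen, stood at 35.6, 160, 44.8 and 5632. It was bright on the combination array alone and was called higher although both arrays of IM minus control lay at background.

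The effect of IM in K562 differed from that in KBM5 in 1796 genes (10.2%) by limma's test of the difference in the same model, 867 above 0 (4.9%) and 929 below 0 (5.25%). Of the genes called in K562, 676 were among them, including 258 rises with a difference above 0 and 336 falls with a difference below 0. LYN and MCL1 fell in K562 and had positive pair differences in KBM5, with differences between lines of -2.93 ± 0.34 and -2.89 ± 0.39. SLC2A1 rose in K562 and had KBM5 pair differences of -2.96 and -2.55, a difference of 4.33 ± 0.40 (adjusted p = 0.00025). HMGCS1, DHCR7, FASN, PHGDH and ASNS fell in K562 by less than the KBM5 pair differences, with differences between 2.49 (ASNS) and 3.22 (HMGCS1 and PHGDH). FASN, PHGDH and ASNS were each above background on only 2 KBM5 arrays, so their differences between lines are not exact. Genes of the later cell cycle differed widely: 37 of 44 DNA replication genes, 32 of 40 mitosis genes and 30 of 41 histone genes had a called difference above 0, against 4.9% of all genes. Their K562 medians were -0.38, -0.20 and -0.19 and their KBM5 medians -2.66, -2.23 and -2.01. For ribosome biogenesis factors 1 difference above 0 and 5 below 0 were called, with medians of -1.58 and -1.35. The difference for MYC was -0.05 ± 0.35 and for YPEL3 0.50 ± 0.34, and neither was called. With the effect in K562 resting on combination minus OR21 alone 611 differences were called, and on IM minus control alone 718.

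**Figure D4:**
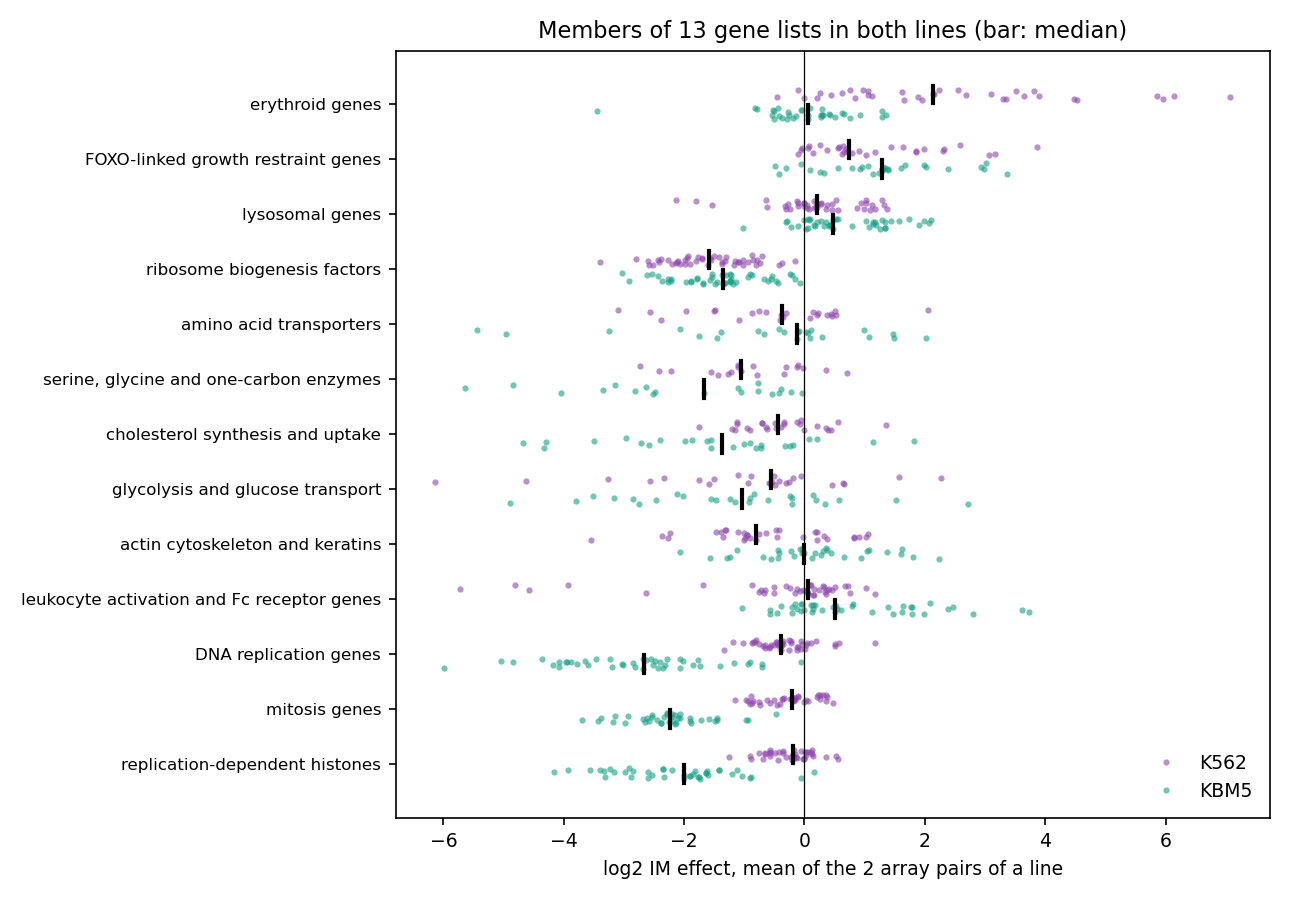
Each point is a measured member of 1 of 13 gene lists, placed by its log2 effect of IM as the mean of the 2 array pairs of a line, purple for K562 and green for KBM5, with a black bar at the median. DNA replication, mitosis and histone genes lie near 0 in K562 and mostly below -1 in KBM5, and erythroid genes have medians of 2.14 and 0.06. The erythroid genes ALAS2, HBB, KEL, CA1, SLC4A1, AHSP and EPB42 were at background on all 4 KBM5 arrays. Their KBM5 differences are therefore not measured values.

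In a few genes the pair differences lay far apart. No repeat was left to test the difference between the pairs, so it is a description. Its median size was 0.30 over genes above background on at least 1 array. Among genes above background on at least 3 arrays, it was largest in 5 genes whose OR21 array already stood above control: ALAS2, EPB42, FAXDC2, ID2 and SLC30A10 had pair differences of which combination minus OR21 was the smaller, by -2.44 for ID2 and -3.34 for ALAS2. The control arrays of EPB42 and SLC30A10 lay at background, so their gaps and their place in this order are not exact. FAXDC2, a lipid hydroxylase family gene that stood at 657, 3831, 36565 and 33948, reached similar intensities on both arrays with IM, and so did the manganese exporter gene SLC30A10, at 54.9, 323, 2726 and 2967. ID2 stood at 397, 1634, 1748 and 1328 and was not called. On the other side were the metallothioneins MT2A, MT1L and MT1X, metal-binding proteins, with RASGEF1A and NQO2. MT2A stood at 3359, 6928, 2478 and 16840, MT1X at 1666, 2327, 635 and 4225, and MT1L at 836, 1442, 395 and 2449. In these 3 genes the combination array was the highest and the IM array the lowest, and none was called for IM. As close copies, metallothionein genes may share probe signal. NQO2, a quinone reductase, stood at 5239, 2586, 529 and 827 and fell 5.57-fold. Among the called genes given with values above, the value on 1 pair alone lay over 1.5 times from the mean of both pairs in NQO2, ALAS2, EPB42, FAXDC2 and SLC30A10. The same held for SLC4A1, CA1, KEL, TUBB1, TMPRSS11F, SLC6A9, EZH1, ABCA7, IER2, IER3, SLC7A5, PHGDH, DDIT4, TRIB3, CD3D and KRT10, so the folds given for these depend on all 4 arrays. In LXN, described above, the pairs lay further apart still. Other called genes can show the same, as HEMGN did with pair differences of 3.80 and 1.75.

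**Figure D5:**
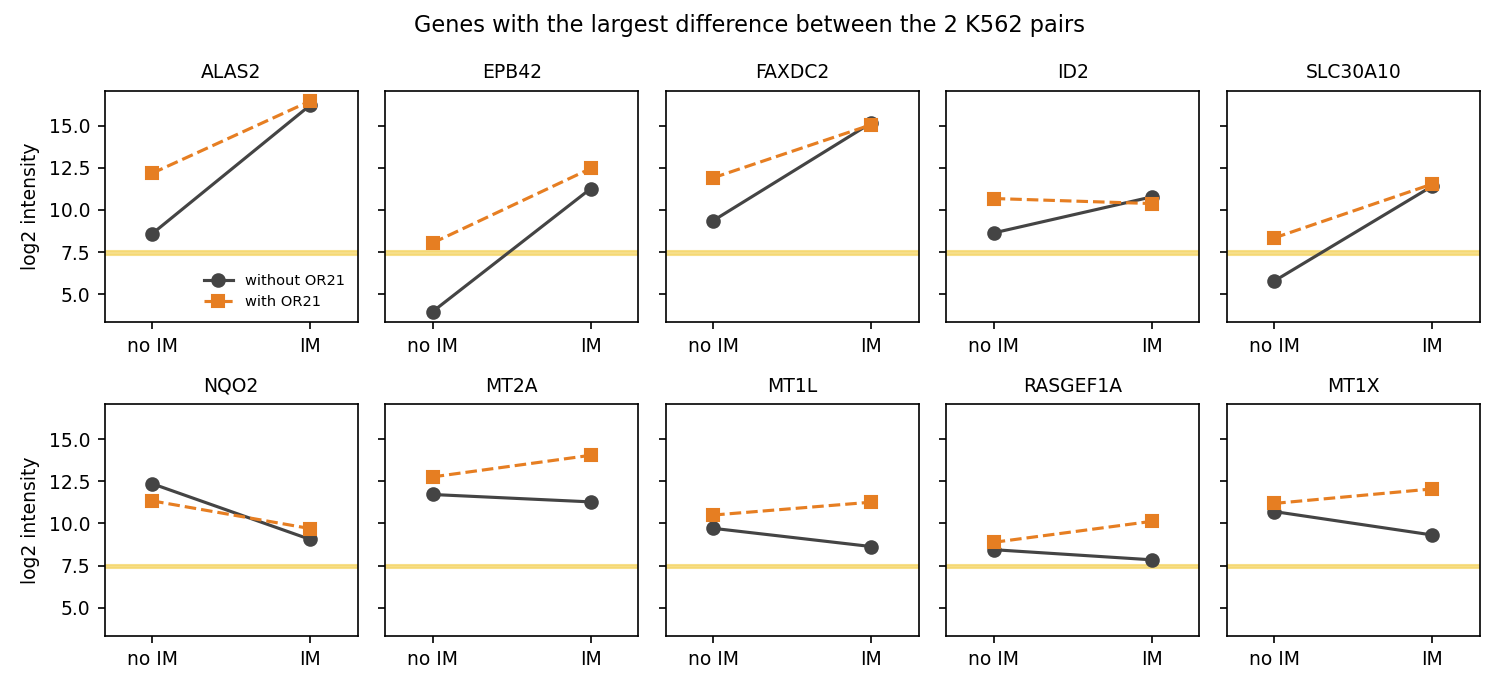
Log2 intensity without and with IM for the 5 genes in each direction with the largest difference between the pairs, among genes above background on at least 3 K562 arrays. Solid lines are the pair without OR21 and dashed lines the pair with it, and the yellow band is the range of backgrounds. In the top row the lines meet at the right or narrow, and for the metallothioneins in the bottom row they part, with combination minus OR21 above IM minus control by 1.72 (MT2A) to 2.25 (MT1X).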

How the data were processed

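Expression was measured on 8 arrays, 1 per line and treatment, and the comparisons used the 4 K562 arrays, with the KBM5 arrays adding to the estimated spread. The authors deposited a linear intensity for each of 24351 probe sets. Which platform, software and normalization they used is not given in the sources used here. Of these probe sets 17709 carried 1 gene symbol, giving 17687 genes, and for the 20 genes with several the brightest was kept.

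Log2 intensities without further normalization were fitted with limma 3.58.1 (R 4.3.3): 6 terms (line, OR21 within line, IM within line), 2 residual and 8.309 prior degrees of freedom. P-values were adjusted over all genes. The procedure was tested on simulated data for the IM effect in K562. It called 15 of 100 genes with a log2 change of 1, 95 of 100 with a change of 2, and 8 unchanged genes. Far fewer genes were changed there than were called in the real data, which makes the adjusted threshold stricter in the simulation.

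The comparison, the 48 gene lists and the named genes were chosen with earlier results of these data known. Named were the 15 largest called rises and falls by the smaller pair difference, up to 4 called members per list in its main direction and 2 in the other, 5 genes each way by the difference between pairs, 8 each way also called between lines, and cell type markers. Promoters came from RefSeq's table for GRCh38.p14, which held 14250 of the array's genes, at the first start listed.

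Alternatives were quantile normalization, filters on dim genes, trend and robust moderation, mean of probe sets, log2(value + 16), the K562 arrays alone, a common OR21 by IM term, other fold and background limits, and each array left out.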

Additional observations from a re-analysis of the deposited data

Results flagged for a closer look

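In 16 genes the effect of IM in K562 differed from that in KBM5 by limma's test of the difference, and these were the 8 largest rises and 8 largest falls in K562 with such a call. Values are log2 effects in K562 minus those in KBM5. Among the rises the difference was 6.65 for SLC4A1, 6.25 for CYP3A5, 6.22 for TUBB1, 6.12 for EPB42, 5.86 for CA1, 5.40 for DUSP21, 4.97 for C17orf99 and 4.59 for AHSP. All 8 were at background on the 4 KBM5 arrays, and in K562 without IM except for the OR21 array of EPB42, so these sizes are not exact. Among the falls it was -7.21 for EGR1, -6.52 for CD69, -5.93 for FCGR2A, -5.72 for LCP2, -4.87 for FCGR2C, -4.54 for CD3D, -4.07 for PIM2 and -2.16 for ID1. EGR1, CD69 and CD3D were at background on the 4 KBM5 arrays, so a fall could not have been seen there. With IM, these genes, LCP2 and ID1 were also at background in K562, so their sizes are not exact either. FCGR2A, FCGR2C and LCP2 were above background on all 4, with positive differences in both KBM5 pairs: 0.92 and 1.31 for FCGR2A, 0.67 and 0.96 for FCGR2C, and 1.93 and 1.64 for LCP2. PIM2 was above background on 2 KBM5 arrays and ID1 on 1, which leaves the size for PIM2 inexact as well.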

How the results depend on the processing

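The number of arrays limits every value here: each group was 1 array, so nothing measures the spread between cultures. The OR21 term within each line matched the arrays with and without IM by OR21 status. No blocking by replicate was possible, because each group had 1 array. Leaving out 1 K562 array moved the count of calls most: the IM effect in K562 ranged from 454 (without control or without IM) to 657 (without OR21 or without the combination), and 442 and 637 of these calls were among the 2368. The count of differences between lines was 611 and 718 in the same settings, and up to 1804 without a KBM5 array. With 1.5-fold in place of 2-fold in both pairs, 3005 genes passed, and with 3-fold, 403. Under the other alternatives the total counts stayed within 1.5 times of those reported, but of the genes above background on one side only, 232 were above it with IM and 254 without IM after quantile normalization and 415 and 44 with the 99th percentile, against 125 and 387. The K562 arrays alone called 3201 genes, including all 2368. Quantile normalization called 2209, 46.7% of them higher against 39.9%. Of the 227 called genes named by rule, 212 kept the call under every alternative that left out no K562 array, and 99 also with each K562 array left out. Quantile normalization ended the calls of PTPN1, PRPS2, PSMC4, PSMD11, TNFRSF1A, POLD2, ORC5, SPC25, KIF11, MLX, MAX, KDM2A, TGFB1 and VCL, and log2(value + 16) that of CDT1. No called gene reversed. Of uncalled genes, leaving out a K562 array gave 1 sign on one pair and the other sign on the other: ID2 from -0.30 to 2.14, MT1L from -1.08 to 0.76, MT1X from -1.39 to 0.86, MT2A from -0.44 to 1.28 and RASGEF1A from -0.60 to 1.24. Each effect then rests on the pair that is left. The 370 calls of genes at background on both sides carry no fold.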

Other observations

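Families grouped by the root of their gene symbol were looked at after the values had been seen, and are described without a test of the family. Of 50 DDX and DHX RNA helicases, which unwind RNA in ribosome assembly, splicing and export, 16 fell with IM in K562 and none rose. That is 32% lower, beside 8.05% of all genes, with a median of -0.54. On at least 1 K562 array 38 of the 50 were above background. The nearer comparison, here and for the nucleoporins and exosome components below, is 1075 falls among the 6436 genes above background with a promoter. DDX21, DHX33 and DDX39A were the first falls by size. Of 20 nucleoporins, the building blocks of the nuclear pore, 6 fell (30%), among them NUP107, NUP88 and NUP93, and none rose (median -0.58). All 20 were above background. Of 9 components of the RNA exosome, which trims and degrades RNA, 4 fell (44.4%) and none rose (median -0.79), and all 9 were above background. Of 18 TNF receptor superfamily genes 5 fell (27.8%) and none rose, but only 4 of the 18 were above background on a K562 array.

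Rises were fewer. Of 22 tetraspanins, membrane proteins that organize surface receptors, 5 rose and none fell. That is 22.7%, beside 5.34% of all genes, but only 6 of the 22 were above background on a K562 array. Of the 5 rises, only TSPAN32, TSPAN17 and TSPAN31 were above background on both arrays of a side. Of 492 ZNF zinc finger genes 33 rose (6.71%) and 15 fell (3.05%), beside 5.34% and 8.05% of all genes. Zinc transporters of the SLC30 and SLC39 families moved both ways, 4 of 24 up (16.7%) and 4 down (16.7%), from SLC30A10 at the top to SLC39A14 at the bottom.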
